A study of Mus musculus with 6 samples.

Results

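The genes described here are 10 mouse genes whose products modify and crosslink collagen: the prolyl hydroxylase subunits *P4ha1* and *P4ha2*, the lysyl hydroxylases *Plod1*, *Plod2* and *Plod3*, the collagen chaperone *Serpinh1*, and the lysyl oxidases *Lox*, *Loxl1*, *Loxl2* and *Loxl3*. They were chosen by gene name from the 56884 gene IDs of the tables. Each name matched 1 gene ID, and all 10 genes were among the 15426 tested. RNA-seq was performed on an immortalized mouse cell line from the stromal vascular fraction (SVF) of subcutaneous white adipose tissue, in which HA-tagged PPARγ2 carrying either of 2 mutations was stably overexpressed from a retroviral vector with puromycin selection. In PPARγ2 K382Q, lysine 382 is replaced by glutamine, which resembles acetylated lysine. In PPARγ2 K382R, it is replaced by arginine, which cannot be acetylated. The groups were K382Q-overexpressing cells (n = 3) and K382R-overexpressing cells (n = 3), and both had been kept for 2 days in beige adipocyte differentiation medium containing IBMX, indomethacin, dexamethasone, insulin, T3 and rosiglitazone. Cells with wild-type PPARγ2 or an empty vector were not analysed here, so each difference is between the mutants. The replicates are labelled biological replicates, and whether they came from separate transductions or cultures is not given in the sources used here, so p-values measure only the spread between these samples, which may be technical.

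Fibrillar collagen is modified in several steps. In the endoplasmic reticulum, prolyl 4-hydroxylase, a tetramer of P4HA subunits and protein disulfide isomerase (P4HB), hydroxylates prolines so that the triple helix is stable at body temperature, lysyl hydroxylases (PLOD) hydroxylate lysines, and HSP47, the product of *Serpinh1*, binds the folded procollagen until it leaves for the Golgi. Both kinds of hydroxylase need iron, 2-oxoglutarate, oxygen and ascorbate. Outside the cell, copper-dependent lysyl oxidases convert lysines and hydroxylysines of collagen, and lysines of elastin, to aldehydes, from which the crosslinks form. Adipocyte precursors lay down fibrillar collagen, and this matrix is remodelled as they become adipocytes.

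The question was whether the hydroxylases of the cell and the oxidases of the matrix differed alike between the mutants. The 10 genes did not all differ in one direction. Of the 10 genes, 5 were lower in K382Q-overexpressing cells (*Loxl1*, *Serpinh1*, *Loxl3*, *Plod3* and *Plod2*), 1 was higher (*P4ha2*), and 4 did not pass the test (*P4ha1*, *Plod1*, *Lox* and *Loxl2*), at an adjusted p-value under 0.05 by limma on log2(TPM + 0.5) with Benjamini-Hochberg adjustment over all genes tested. TPM corrects read numbers for gene length and scales every library to the same total, so it shows shares of the RNA rather than amounts. Across all genes tested, 36.9% were called lower and 11.1% higher, so 5 lower genes of 10 stand against a background in which many genes were called. The TPM of the 3 K382Q libraries lay wholly below that of the 3 K382R libraries for 6 of the 10 genes and wholly above it for 1, against 42.8% and 14.1% of all genes tested. The median log2 fold change (K382Q against K382R) was −0.11 over the 10 genes and −0.14 over all genes tested. *Loxl1* was the only one of the 10 with a fold change over 2, a size at which 2.61% of all genes were called lower and 1.27% higher.

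**Figure D1:**
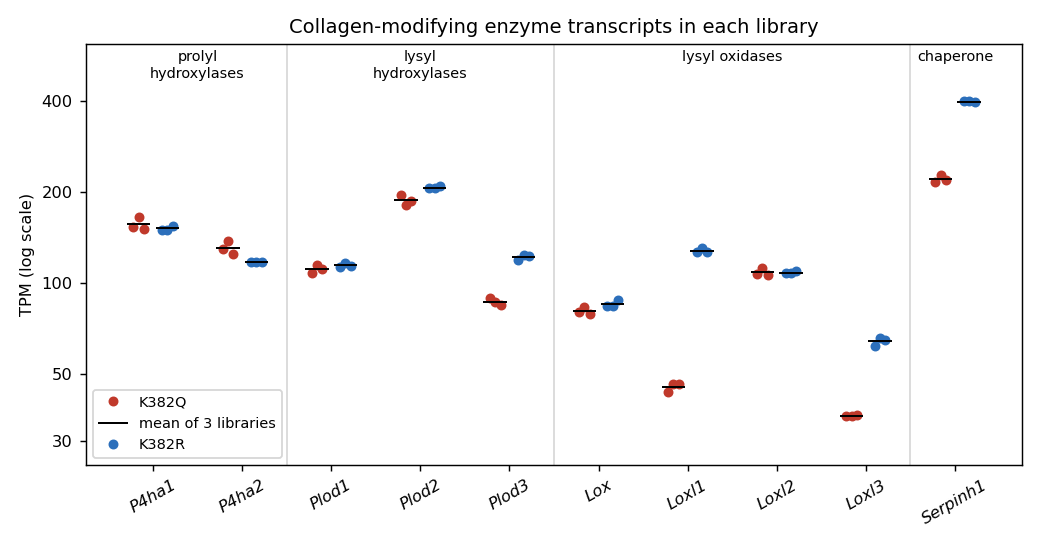
TPM (vertical axis, log scale) of each of the 10 genes in every library, with 3 K382Q-overexpressing and 3 K382R-overexpressing replicates per gene and a bar at the mean of each group. The replicates lie close together, and the groups are widely separated for *Loxl1*, *Loxl3* and *Serpinh1* and overlap for *P4ha1*, *Plod1* and *Loxl2*.

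The libraries held 5.95 to 7.50 Gb of aligned bases in K382Q-overexpressing and 6.53 to 8.15 Gb in K382R-overexpressing cells, the mean coverage of the 10 genes was 51.7-fold to 1028-fold per base, and the first principal component (61.3% of the variance) separated the mutants. The marker lists of cell types did not all differ alike between the mutants. For comparison, 36.9% of all genes tested were called lower and 11.1% higher by TPM. These shares were 20.4% and 19.8% after median-ratio scaling, and 40.6% and 10.4% by coverage share. All 5 tested of 8 fibroblast and adipocyte precursor markers were lower in K382Q-overexpressing cells (summed TPM 463 to 510 against 778 to 815, or 12.7 to 13.4 against 26.7 to 29.0 without *Ly6a*, which makes up most of the sum, and *Lum* was listed at 0 in all libraries), as were all 4 tested of 6 myofibroblast markers (122 to 132 against 157 to 160 TPM). Most of the myofibroblast sum was *Tpm2*, whose call was lost with median-ratio scaling (3 of 4 lower), and without it the sums were 1.83 to 2.06 against 17.1 to 20.1 TPM. *Myl9*, another of the 4, passed the filter through K382R-overexpressing cells only. Of 8 adipocyte markers, 3 were lower and 2 higher, with 2 lower and 4 higher after median-ratio scaling and 5 lower and 2 higher by coverage share. Their sum was 50140 to 53990 against 41470 to 42670 TPM, most of it *Fabp4*, and 3701 to 3752 against 4042 to 4131 TPM without it. The part of these markers in the results was not tested, and in bulk RNA fewer cells of a type and less RNA per cell cannot be told apart. Leukocyte markers summed to 3.54 to 4.69 against 3.46 to 5.18 TPM, most of it *Cd68* (0.0191 to 0.102 against 0.0236 to 0.286 TPM without it), with *Adgre1* and *Cd3e* listed at 0 in all libraries, and endothelial markers to 1.60 to 2.25 against 1.71 to 1.94 TPM, most of it *Pecam1* (0.0177 to 0.176 against 0.217 to 0.370 TPM without it), with *Emcn* listed at 0.

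The median of all genes was below 0, and the calls depended in part on the scaling of the libraries. When each library was scaled by its median ratio to the others, which sets the median of all genes to 0.00, 4 of the 10 genes were lower and 3 higher, against 20.4% and 19.8% of all genes tested. *Loxl1*, *Loxl3*, *Serpinh1* and *Plod3* were lower and *P4ha2* higher with either scaling. The call of *Plod2* was lost, at a log2 fold change of 0.01, and *P4ha1* and *Loxl2* became called higher, at 0.20 and 0.15.

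**Figure D2:**
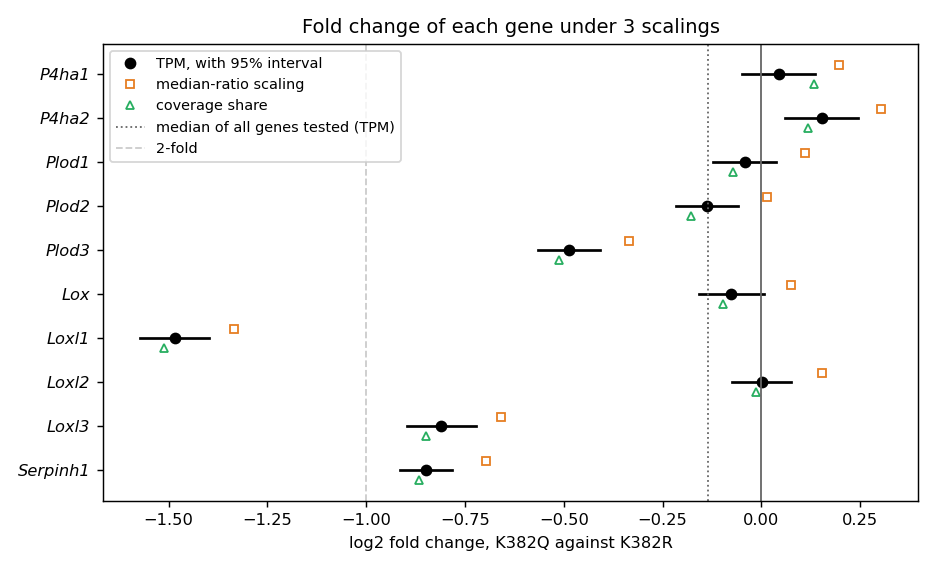
Log2 fold change (horizontal axis, K382Q against K382R) of the 10 genes by TPM (black, with 95% confidence interval), after median-ratio scaling (squares) and by coverage share (triangles), with a dotted line at the median of all genes by TPM (−0.14) and a dashed line at 2-fold. *Loxl1*, *Loxl3*, *Serpinh1* and *Plod3* lie below 0 and *P4ha2* above 0 with all 3, while *Plod1*, *Plod2*, *Lox* and *Loxl2* change sign between them.

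*P4ha1* and *P4ha2* encode alternative catalytic subunits of prolyl 4-hydroxylase. *P4ha2* (ENSMUSG00000018906.15, chr11:53990921-54022491, plus strand, GRCm39 as in all positions of genes given here) was at 130, 138 and 125 TPM in the K382Q-overexpressing and at 117, 118 and 118 TPM in the K382R-overexpressing replicates. Every K382Q library was above every K382R library, by 11.1% in the mean (131 ± 6.39 against 117 ± 0.142 TPM, SD, n = 3 each). The log2 fold change was 0.15 (SE 0.0393, limma adjusted p = 0.0141), and its adjusted p ranged from 0.000906 to 0.0497 over 18 alternative settings. *P4ha1* (ENSMUSG00000019916.15, chr10:59159118-59209126, plus strand) was at 153, 165 and 152 TPM against 150, 150 and 155 TPM. These groups overlapped, with a log2 fold change of 0.04 (95% confidence interval −0.05 to 0.14, limma adjusted p = 0.406).

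The deposited read coverage gave *P4ha1* a different reading. Coverage averages the read depth over the bases of a gene, and the deposited FPKM of a gene could exceed its coverage scaled for depth, for a reason that was not tested. For *P4ha1* the ratio of FPKM to depth-scaled coverage was 2.86 to 3.20 in K382Q and 3.18 to 3.29 in K382R libraries. As a share of all coverage in the library, put on the same total as TPM, *P4ha1* was at 88.4, 85.8 and 87.5 in K382Q-overexpressing and 79.6, 79.1 and 79.6 in K382R-overexpressing cells, with no overlap and a log2 fold change of 0.13 (limma adjusted p = 0.00275). By this coverage share, 40.6% of all genes tested were called lower and 10.4% higher. Over 18 alternatives the log2 fold change of *P4ha1* was 0.0047 to 0.31 and its adjusted p 9.53e-05 to 0.918. *P4ha1* was also called higher with median-ratio scaling (0.20), with FPKM (0.13, limma adjusted p = 0.0311) and with quantile normalization (0.15, limma adjusted p = 0.0177).

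Upstream sequence was available for *P4ha1*, *P4ha2*, *Plod1*, *Plod3* and *Serpinh1* in RefSeq promoters of build GRCm38.p6, and 250 bases before each start were searched on both strands. *P4ha1*, *P4ha2*, *Plod2* and *Lox* are known targets of the hypoxia-inducible factors, whose binding element contains ACGTG. These letters are also part of the E-box CACGTG. They occurred in 4 of the 5 promoters (not in *Plod1*) and in 16.6% of 32851 RefSeq promoter windows of the same length. The windows were rich in G and C, at 55.6% to 70.0% against a median of 52.4%, and the genes with the letters included *P4ha2*, called higher, and *Plod3* and *Serpinh1*, called lower. The windows of *P4ha2* (chr11:54100674-54100923, plus strand) and *Serpinh1* (chr7:99353240-99353489, minus strand) are shown because these genes were called in opposite directions. Each is written 5′ to 3′ on the strand of the gene, and capitals mark ACGTG, or CACGT where it lies on the opposite strand.
P4ha2: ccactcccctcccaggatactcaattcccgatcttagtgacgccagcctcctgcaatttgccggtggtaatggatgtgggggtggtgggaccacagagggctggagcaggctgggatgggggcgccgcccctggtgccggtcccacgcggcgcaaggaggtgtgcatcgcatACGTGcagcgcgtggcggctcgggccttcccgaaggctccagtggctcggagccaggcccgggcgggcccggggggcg
Serpinh1: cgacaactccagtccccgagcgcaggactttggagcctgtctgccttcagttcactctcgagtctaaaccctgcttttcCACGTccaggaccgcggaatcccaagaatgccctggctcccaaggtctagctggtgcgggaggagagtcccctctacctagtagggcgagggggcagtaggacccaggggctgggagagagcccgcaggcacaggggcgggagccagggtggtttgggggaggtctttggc
Relative to the gene start, the match begins at −78 in *P4ha2* and at −171 in *Serpinh1*. GGGCGG, the GC box bound by SP1, was found in 4 of the 5 windows and in 32.7% of all windows. Neither GAANNTTC, a part of the heat shock element, nor AGGTCA repeated after 1 base of any kind, the PPAR response element in its plain form, was found in the 5 windows, and they occurred in 6.69% and 0.0335% of all windows. These matches describe the letters only.

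Of the lysyl hydroxylases, *Plod3* and *Plod2* were lower in K382Q-overexpressing cells and *Plod1* did not pass the test. *Plod3* (ENSMUSG00000004846.11, chr5:137015873-137025502, plus strand), which encodes an enzyme that hydroxylates lysines and also adds sugars to hydroxylysine, was at 89.4, 86.8 and 84.6 TPM in K382Q-overexpressing and at 119, 124 and 123 TPM in K382R-overexpressing cells. All K382Q libraries were below all K382R libraries, with a log2 fold change of −0.49 (SE 0.0336, limma adjusted p = 2.06e-05), and 12.9% of all genes tested had a lower log2 fold change. *Plod3* shares 575 exonic bases with *Znhit1* on the opposite strand, which was at 115 against 97.8 TPM, and the library kit as named does not record the strand, so reads in those bases cannot be told apart.

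*Plod2* (ENSMUSG00000032374.15, chr9:92424276-92490481, plus strand) encodes the enzyme that hydroxylates lysines of the telopeptides, the ends of the collagen chain where crosslinks start. It was at 196, 182 and 187 TPM against 206, 207 and 210 TPM. The groups did not overlap, and the log2 fold change was −0.14 (SE 0.0339, limma adjusted p = 0.0113), which is close to the median of all genes tested. With median-ratio scaling it was 0.01 (limma adjusted p = 0.745), and over 18 alternatives the adjusted p ranged from 0.00232 to 0.881. *Plod1* (ENSMUSG00000019055.16, chr4:147994210-148021224, minus strand), whose product acts on lysines of the triple helix, was at 108, 115 and 112 TPM against 113, 117 and 114 TPM. These values overlapped (log2 fold change −0.04, 95% confidence interval −0.12 to 0.04, limma adjusted p = 0.359). Within the summed lysyl hydroxylases of each library, *Plod3* took 22.1% to 22.7% in K382Q-overexpressing and 27.2% to 27.6% in K382R-overexpressing cells, and *Plod2* was the most abundant by TPM in every library, at 46.2% to 49.9%.

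*Serpinh1* (ENSMUSG00000070436.13, chr7:98994583-99002446, minus strand) was the most abundant of the 10 genes in every library. Its level was 217, 228 and 220 TPM in K382Q-overexpressing cells and 402, 400 and 397 TPM in K382R-overexpressing cells. The groups were far apart, and the mean was 1.80-fold lower in K382Q-overexpressing cells (222 ± 5.35 against 399.6 ± 2.40 TPM, SD, n = 3 each). The log2 fold change was −0.85 (SE 0.0282, limma adjusted p = 8.28e-07), and 4.25% of all genes tested had a lower one. Relative to the type I collagen chains, *Col1a1* and *Col1a2* summed in the same library, *Serpinh1* was at a log2 ratio of 1.60 ± 0.0662 in K382Q-overexpressing and 1.40 ± 0.0261 in K382R-overexpressing cells. This ratio, for which no test was made, was 0.19 higher in K382Q-overexpressing cells, but its direction depended on the chains chosen. Against all 9 listed fibrillar chains summed, the log2 ratio of *Serpinh1* was −0.79 ± 0.0206 in K382Q-overexpressing and −0.46 ± 0.00736 in K382R-overexpressing cells, which is lower in K382Q-overexpressing cells by 0.33.

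Of the lysyl oxidases, *Loxl1* and *Loxl3* were lower in K382Q-overexpressing cells, and *Lox* and *Loxl2* did not pass the test. *Loxl1* (ENSMUSG00000032334.11, chr9:58195021-58220469, minus strand), which encodes an oxidase known for its part in the upkeep of elastic fibres, was at 43.5, 46.4 and 46.3 TPM in K382Q-overexpressing cells. In K382R-overexpressing cells it was at 127, 131 and 126 TPM. Every K382R library exceeded every K382Q library by far, and the mean was 2.80-fold lower in K382Q-overexpressing cells on the log2(TPM + 0.5) scale (log2 fold change −1.48, SE 0.0378, limma adjusted p = 2.93e-07). Of all genes tested, 0.81% had a lower log2 fold change.

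*Loxl3* (ENSMUSG00000000693.11, chr6:83011154-83029543, plus strand) encodes an oxidase with scavenger receptor domains and had the lowest TPM of the 10 genes in both groups. It was at 36.3, 36.3 and 36.5 TPM against 61.8, 65.6 and 65.0 TPM. The groups did not overlap, and *Loxl3* was 1.75-fold lower in K382Q-overexpressing cells (log2 fold change −0.81, SE 0.0375, limma adjusted p = 3.48e-06). It shares 1182 exonic bases with *Htra2* on the opposite strand, which was at 76.0 against 90.1 TPM, so part of its reads may belong to that gene, and this share was not tested.

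*Lox* (ENSMUSG00000024529.15, chr18:52649139-52662939, minus strand), the founding member of the family, was at 80.5, 83.1 and 79.2 TPM in K382Q-overexpressing and 84.2, 83.8 and 88.0 TPM in K382R-overexpressing cells. The groups did not overlap, yet the difference was small and missed the threshold (log2 fold change −0.08, 95% confidence interval −0.16 to 0.01, limma adjusted p = 0.119). It was called lower by coverage share (−0.10, limma adjusted p = 0.0345) and was positive with median-ratio scaling (0.08), with adjusted p from 0.0345 to 0.880 over 18 alternatives. *Loxl2* (ENSMUSG00000034205.17, chr14:69846517-69933283, plus strand), another oxidase with scavenger receptor domains, was at 107.5, 112 and 106 TPM against 107.8, 108 and 109 TPM. Its groups overlapped, and the log2 fold change of 0.0012 had a 95% confidence interval of −0.07 to 0.08 (limma adjusted p = 0.981). With median-ratio scaling *Loxl2* was called higher (0.15, limma adjusted p = 0.00971). *Loxl2* shares 943 exonic bases with *R3hcc1* on the opposite strand (30.9 against 31.0 TPM).

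**Figure D3:**
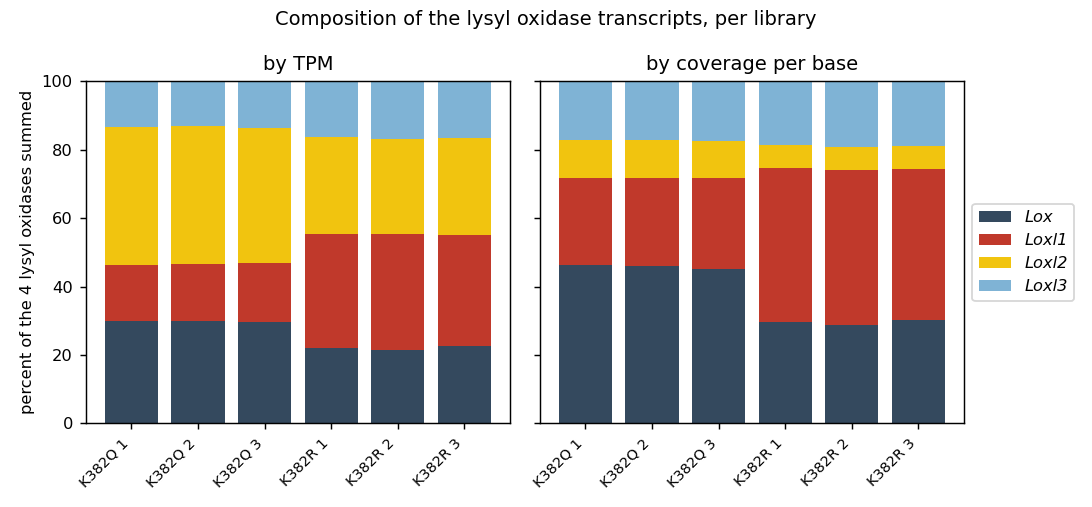
Share of each of the 4 lysyl oxidases in their sum (vertical axis, percent) in each of the 6 libraries, by TPM in the left panel and by coverage in the right. By TPM, *Loxl1* takes 16.2% to 17.3% in K382Q-overexpressing cells and 32.5% to 33.6% in K382R-overexpressing cells, and by coverage 25.2% to 26.5% and 44.0% to 45.3%.

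The makeup of the oxidases thus differed. *Loxl1* made up 16.7 ± 0.523% of the summed oxidase TPM in K382Q-overexpressing and 33.1 ± 0.570% in K382R-overexpressing cells (SD, n = 3 each). The shares of *Lox* (29.8 ± 0.262% against 22.1 ± 0.525%) and *Loxl2* (40.02 ± 0.396% against 28.1 ± 0.242%) were larger in K382Q-overexpressing cells, although neither gene passed the test. By coverage the shares of *Loxl2* were smaller, at 11.0% against 6.73%, and those of *Lox* were 45.8% against 29.6%. By TPM, *Lox* exceeded *Loxl1* in every K382Q library (log2 ratio of *Loxl1* to *Lox* −0.89 to −0.77), and *Loxl1* exceeded *Lox* in every K382R library (0.52 to 0.64). By coverage the order was the same (−0.88 to −0.76 and 0.53 to 0.65). These shares and ratios are descriptions without a test.

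The hydroxylases were then set against the lysyl oxidases within each library. The summed TPM of *P4ha1*, *P4ha2*, *Plod1*, *Plod2* and *Plod3* was 676, 687 and 660 in K382Q-overexpressing and 706, 715 and 719 in K382R-overexpressing cells. By FPKM the hydroxylase sums overlapped, with means of 277.1 and 276.6. The summed TPM of the 4 oxidases was 268, 278 and 268 against 380, 388 and 389. The log2 ratio of hydroxylases to oxidases, in which the scaling of the library cancels, was accordingly 1.34, 1.31 and 1.30 against 0.89, 0.88 and 0.89, a difference of 0.43 that far exceeded the spread between replicates (SD 0.0196 and 0.00502). Most of this difference came with *Loxl1*. Without it the ratios were 1.57 to 1.59 against 1.45 to 1.48, and the difference was 0.11. With the medians of the log2 values in place of the sums, the difference was 0.76.

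Within the hydroxylases, the prolyl enzymes were at 283, 303 and 276 TPM against 267, 268 and 273 TPM in sum, and the lysyl enzymes at 393, 384 and 383 TPM against 438, 447 and 446 TPM. The prolyl sums were higher and the lysyl sums lower in every K382Q library than in any K382R library. Of all single genes tested, 14.1% lay wholly higher and 42.8% wholly lower by TPM, and no such share was formed for sums. With median-ratio scaling, 1 of the 3 lysyl genes was called lower (median log2 fold change 0.01) and the 2 prolyl genes were called higher (median 0.25). These stand against 20.4% lower and 19.8% higher over all genes. Relative to *Col1a1* and *Col1a2*, the log2 ratio of the prolyl hydroxylases was 1.97 ± 0.0494 in K382Q-overexpressing and 0.84 ± 0.0219 in K382R-overexpressing cells, that of the oxidases 1.89 ± 0.0717 and 1.36 ± 0.0346. That of the lysyl hydroxylases was 2.40 ± 0.115 and 1.56 ± 0.0346. The differences of 1.13 for the prolyl hydroxylases, 0.84 for the lysyl hydroxylases and 0.53 for the oxidases depended on the reference. Against all 9 listed fibrillar chains they were 0.62, 0.33 and 0.02, and the oxidase ratio then overlapped between the groups (−0.52 to −0.47 and −0.53 to −0.49). By coverage share the oxidase difference was 0.33 against *Col1a1* and *Col1a2* and −0.19 against all 9 chains, so the oxidases had no fixed direction relative to collagen. The ratio of the prolyl hydroxylases to *P4hb*, their partner subunit, overlapped between the groups by TPM, at −2.16 to −2.06 and −2.14 to −2.11, and not by coverage share, at −3.96 to −3.90 and −4.03 to −3.99.

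**Figure D4:**
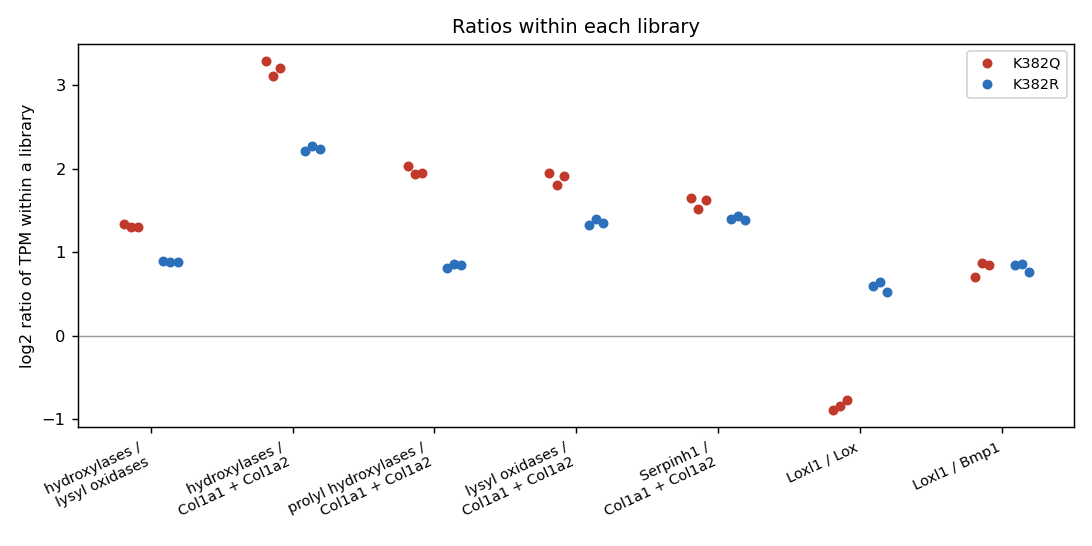
Log2 ratios of TPM or summed TPM within each library (vertical axis) for the 7 ratios named on the horizontal axis, with 1 point per library of K382Q-overexpressing (red) and K382R-overexpressing (blue) cells. Hydroxylases to lysyl oxidases lie at 1.30 to 1.34 against 0.88 to 0.89, the ratio of *Loxl1* to *Lox* changes sign between the groups, and that of *Loxl1* to *Bmp1* overlaps.

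The order of the genes by level depended on the unit. By TPM in K382Q-overexpressing cells, *Serpinh1* was followed by *Plod2*, *P4ha1*, *P4ha2*, *Plod1*, *Loxl2*, *Plod3*, *Lox*, *Loxl1* and *Loxl3*, and of these neighbours only *Plod1* and *Loxl2* overlapped. In K382R-overexpressing cells, *Loxl1* and *Plod3* stood above *P4ha2*, *Plod1*, *Loxl2* and *Lox*, and no neighbours in the order overlapped. The ratio of FPKM to depth-scaled coverage ranged from 1.00 for *Loxl1* and 1.01 for *Lox* to 4.60 for *P4ha2* and 5.60 for *Loxl2* in K382Q libraries. By coverage, *Loxl2* was accordingly the lowest of the 10 genes in both groups, with a coverage share of 32.5 in K382R-overexpressing cells, where that of *Loxl1* was 216 and that of *Serpinh1* 597. The level of *Loxl2* relative to the other oxidases is therefore uncertain. Its comparison between the mutants gave a log2 fold change near 0 in both units (0.0012 and −0.01), but it was called higher with median-ratio scaling (0.15).

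Other genes of collagen processing were mostly lower in K382Q-overexpressing cells. Of 13 listed genes that act inside the cell, 12 were tested, 10 were lower and 1 was higher, against 36.9% and 11.1% of all genes tested, with a median log2 fold change of −0.46 against −0.14. Of these 12, *P4ha3* and *P3h2* reached 0.5 TPM in all libraries of the K382R group only, so they passed the filter through the group where they were high, and the other 10 held 9 lower and 1 higher. The median of −0.46 includes *P4ha3* and *P3h2*, and the median without them is not given here. *P4ha3*, the third prolyl hydroxylase subunit, was at 0.339, 0.298 and 0.602 TPM against 3.02, 3.25 and 2.69 TPM. *Crtap*, a subunit of the prolyl 3-hydroxylase complex, was at 44.7 ± 1.51 against 73.4 ± 1.36 TPM (log2 fold change −0.71), and *Fkbp10*, a prolyl isomerase that acts with PLOD2, had a log2 fold change of −0.46. *P4hb* was the 1 gene called higher, at 1240 ± 24.6 against 1175 ± 11.1 TPM (log2 fold change 0.08, limma adjusted p = 0.0486), and by coverage share it did not pass the test (0.06, limma adjusted p = 0.167).

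Of 9 listed genes that act outside the cell, 6 were tested and all 6 were lower, against the same 36.9% of all genes. Their median log2 fold change was −0.74. *Bmp1*, the procollagen C-proteinase that also activates lysyl oxidase proenzymes, was at 26.0 ± 0.745 against 72.4 ± 2.25 TPM (log2 fold change −1.46, limma adjusted p = 4.38e-07). Its enhancers *Pcolce2* and *Pcolce* had log2 fold changes of −1.02 and −0.90. The log2 ratio of *Loxl1* to *Bmp1* overlapped between the groups, at 0.70 to 0.87 in K382Q-overexpressing and 0.76 to 0.86 in K382R-overexpressing cells. *Loxl4*, the remaining family member, named here after its value was seen, had a log2 fold change of −0.56 (limma adjusted p = 0.000526).

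Of the 9 fibrillar collagen chains listed, 8 were tested, 6 were lower and none was called higher, against 36.9% and 11.1% of all genes. Their median log2 fold change was −0.35. *Col1a1* was at 45.5 ± 3.47 against 91.1 ± 1.52 TPM (log2 fold change −0.996), *Col1a2* at 28.0 against 59.8 TPM (−1.08), and *Col5a1* had a log2 fold change of −0.70. After median-ratio scaling, 7 of the 12 intracellular genes, 5 of the 6 extracellular genes and 6 of the 8 chains were called lower, and 1, 0 and 0 higher, against 20.4% and 19.8% of all genes. The 7 intracellular genes include *P4ha3*, which passed the filter through the K382R group only, where it was high.

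**Figure D5:**
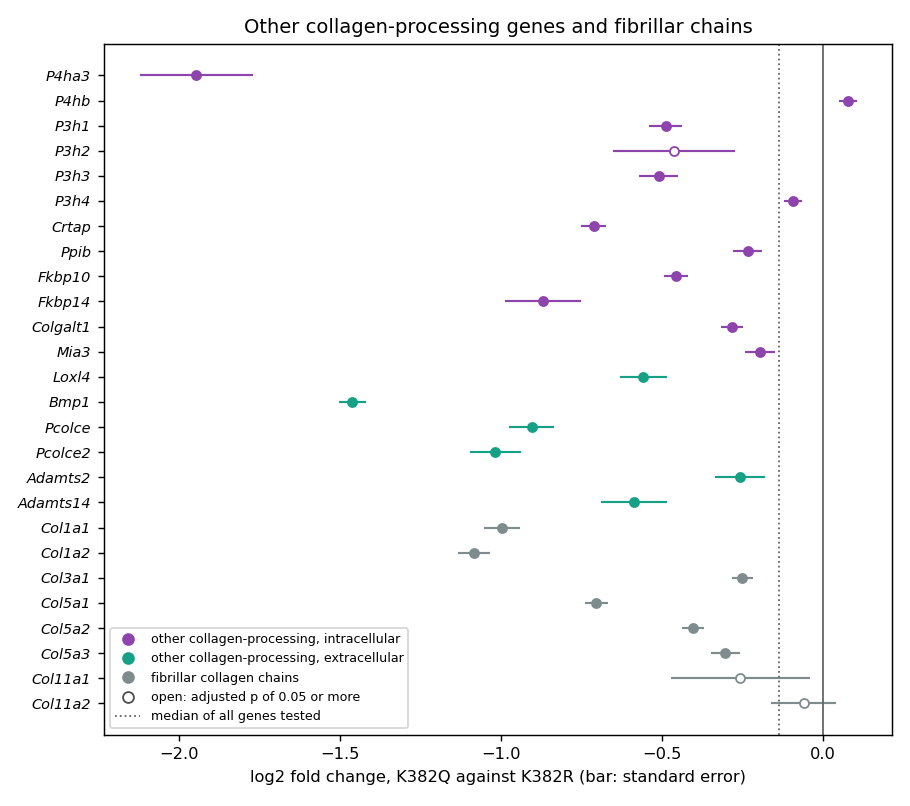
Log2 fold change (horizontal axis, K382Q against K382R, with its standard error) of the tested genes of collagen processing inside and outside the cell and of the fibrillar chains, with open circles for genes that did not pass the test and a dotted line at the median of all genes tested (−0.14). *P4hb* is the only gene right of 0, and *P4ha3* and *Bmp1* lie farthest to the left.

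A list of 20 other hypoxia-responsive genes went the opposite way, with 19 higher and 1 lower in K382Q-overexpressing cells, against 11.1% and 36.9% of all genes, and a median log2 fold change of 0.78 against −0.14. *Egln3*, a prolyl hydroxylase that acts on the hypoxia-inducible factors, *Bnip3* and *Pdk1* had log2 fold changes of 1.47, 1.26 and 1.19, and *Pfkfb4* was lower (−0.53, limma adjusted p = 0.0181), a call that was lost with median-ratio scaling and by coverage share (limma adjusted p = 0.0617 and 0.0574). Among the members named above as known targets of these factors, *P4ha2* was at 0.15, *P4ha1* at 0.04, *Lox* at −0.08 and *Plod2* at −0.14. With median-ratio scaling these 4 genes were at 0.30, 0.20, 0.08 and 0.01 in the same order. The median of the 20 listed genes was then 0.93.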

How the data were processed

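Paired reads from NEBNext Ultra libraries were aligned to GRCm39 with HISAT2 and quantified with StringTie, according to the methods and the submitters' processing notes. The release of the gene annotation is not given in the sources used here. The authors deposited 1 gene table per library with TPM, FPKM and coverage. TPM as deposited is scaled to the same total in each library, FPKM as deposited is scaled for gene length and sequencing depth, and coverage as deposited is unnormalized depth averaged over a gene. Entries with a repeated gene ID (at most 5 per library) were summed. Depth was taken from the ratio of coverage to FPKM. Counts were not analysed here, so no counting interval is given, and precision rests on 3 replicates per group.

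Genes were kept if TPM reached 0.5 in 3 or more of the 6 libraries. Values of log2(TPM + 0.5), a scale that understates the change of low genes, were fitted with limma-trend (limma 3.58.1, R 4.3.3) and p-values adjusted by Benjamini-Hochberg. A call is an adjusted p under 0.05, and a fold change over 2 was marked separately. An exact permutation test of 3 against 3 cannot give a p under 0.1. Sums and ratios were formed within libraries and not tested. Other steps used Python 3.11.15, pandas 2.3.3, numpy 2.4.6 and matplotlib 3.10.9. The scripts were tested on simulated data. Libraries were checked for duplicates, and no pair shared identical values for more than 0.0162% of genes.

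The 10 genes and the gene lists were chosen with earlier results of these data known. All 10 genes are named. Of each pathway list, the 3 genes with the smallest adjusted p and up to 3 called against the list's direction are named. Marker lists are given by counts and summed TPM, and the genes named from them, other than those at 0, and *P3h2* were chosen after their values were seen. The alternatives were other pseudocounts and filters, FPKM, median-ratio and quantile scaling, no intensity trend, array weights, a replicate block, each library left out, and a fold change over 1.5. Coverage share (coverage scaled to the same total as TPM), with or without median-ratio scaling, and the ratio without *Loxl1* were added after the data were seen. Overlaps of genes came from GENCODE mouse release 39, promoters from RefSeq.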

Additional observations from a re-analysis of the deposited data

How the results depend on the processing

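The calls of *P4ha2*, *Plod3*, *Loxl1*, *Loxl3* and *Serpinh1* kept their direction and passed the threshold under all 18 alternatives. Their log2 fold changes ranged from 0.11 to 0.30, −0.51 to −0.34, −1.51 to −1.33, −0.85 to −0.65 and −0.87 to −0.69. The 4 genes without a call and *Plod2* depended on the scaling. The log2 fold change of *Plod1* turned to 0.0419 with FPKM, 0.11 with median-ratio scaling, 0.0825 with quantile normalization and 0.10 with median-ratio scaled coverage. That of *Plod2* turned to 0.0136 with median-ratio scaling, and its call was also lost with FPKM, quantile normalization and median-ratio scaled coverage. *Lox* turned to 0.0078, 0.0753, 0.0798 and 0.0755 under the same 4 settings in the order given for *Plod1*. *Loxl2* was −0.0028 with array weights, −0.0124 by coverage share and −0.0215 to 0.0173 with 1 library left out, and it was called higher at 0.15 with median-ratio scaling, 0.13 with quantile normalization and 0.16 with median-ratio scaled coverage. *P4ha1* was called higher at 0.13 with FPKM, 0.20 with median-ratio scaling, 0.15 with quantile normalization, 0.13 by coverage share and 0.31 with median-ratio scaled coverage. The median of all genes tested was −0.14 by TPM, −0.05 by FPKM, −0.15 by coverage share and 0.00 with median-ratio scaling. The cause of these changes was not tested.

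The number of genes called lower was 4 to 6 under all alternatives. The number called higher was 2 with FPKM and coverage share, and 3 with median-ratio scaling, quantile normalization and median-ratio scaled coverage, against 1. Over all genes tested, the share called lower was 36.9% by TPM, 40.6% by coverage share and 20.4% with median-ratio scaling. The share called higher was 11.1%, 10.4% and 19.8% in the same order. Shares for the other settings are not given here, so their counts cannot be set against all genes. With a fold change over 1.5, 3 genes passed in place of 1. The share of all genes that passed this size is not given here, so the 3 cannot be set against it. Leaving out each library in turn gave 5 lower, 1 higher and 1 with a fold change over 2 each time. The difference in the log2 ratio of hydroxylases to lysyl oxidases was 0.76 from the medians of log2 values, 0.56 by coverage share, 0.11 without *Loxl1*, and 0.42 to 0.43 with 1 library left out. The last but one setting removes *Loxl1* by construction; the cause of the others was not tested.

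Same-numbered replicates of the mutants did not deviate together (correlations of −0.02, 0.05 and 0.02 across genes). No pairing by number was seen, but the correlations cannot show whether same-numbered samples were handled together. With the replicate number as a block, 6987 genes were called in place of 7415, the log2 fold change of *Loxl1* was −1.48, and no call among the 10 genes changed. Without counts, the depth behind a single value limits its precision to that of 3 replicates.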

Other observations

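Genes of cofactor supply and of elastic fibres bear on the same enzymes. Of 6 genes of copper supply, 5 were tested and 2 were lower in K382Q-overexpressing cells, *Ccs* (log2 fold change −0.21, limma adjusted p = 0.00391) and *Slc31a2* (−0.36, limma adjusted p = 0.0166), which is near the 36.9% called lower among all genes tested. *Atox1*, a copper chaperone, did not pass the test (limma adjusted p = 0.426). *Atp7a*, the copper pump that loads lysyl oxidases in the Golgi, had a log2 fold change of 0.01 (limma adjusted p = 0.919) and is named here after its value was seen. Of 7 genes of iron and ascorbate uptake and storage, 6 were tested (*Slc40a1*, which was not called, reached 0.5 TPM in all libraries of the K382Q group only), 3 were lower (*Ftl1* −0.47, *Slc11a2* −0.56 and *Tfrc* −0.46) and 1 was higher, *Slc23a2*, an ascorbate transporter (0.22, limma adjusted p = 0.0112), against 36.9% lower and 11.1% higher over all genes. Of 10 elastic fibre genes, 5 were tested and 4 were lower, against 36.9% of all genes, among them *Fbn1* (−0.88), *Efemp2* (−0.54) and *Emilin1* (−0.22). *Eln*, which encodes elastin, a substrate of lysyl oxidases, was at 0.0911 against 0.0413 TPM and was not tested. After median-ratio scaling, 0 copper genes were lower and 1 was higher, 3 genes of the iron and ascorbate list were lower and 2 higher, and 2 of the 5 elastic fibre genes were called lower, against 20.4% lower and 19.8% higher over all genes.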
